A study of Mus musculus with 86 samples.

Results

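The oligos described here tile the ends of 2 mouse transcripts, Ssc5d and Soga3, in a reporter pool built to map where TDP-43 acts on RNA in neurites. They were chosen by name: every oligo of the pool whose name carries Ssc5d or Soga3, with its motif-mutated partner where there is one. The rule finds 207 of 11955 oligos, 115 for Ssc5d (61 unmutated, 54 mutated) and 92 for Soga3 (86 unmutated, 6 mutated). These are the shortest tiled regions of the 16 genes in the pool, at 620 nt and 770 nt, and Lars2 follows with 155 unmutated oligos over 1184 nt. Each oligo is 260 nt long and starts 6 nt after the one before it, so neighbouring oligos share most of their sequence and are not replicates of each other.

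TDP-43 is an RNA-binding protein, encoded by Tardbp, that prefers GU-rich stretches and acts in splicing, RNA transport and RNA stability. Neurons place many mRNAs in their neurites, and the sequences that direct this often lie in the 3′ UTR. Ssc5d encodes a secreted glycoprotein with scavenger receptor cysteine-rich domains, a module of innate immune and matrix proteins that binds microbial surfaces. Soga3 encodes a coiled-coil protein of the family that includes the MTCL microtubule crosslinkers.

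The cells were CAD and N2A, mouse neuronal lines in which CRISPR removed endogenous TDP-43 in single clones while an HA-tagged TDP-43 transgene under a doxycycline-off promoter kept them alive. Wild-type samples were grown without doxycycline and knockout samples with it (2 µg/mL for 48 h), so both carry the same edit and transgene. The oligos sat in the 3′ UTR of a GFP reporter under a CMV promoter, on a plasmid pool brought into CAD cells by transfection, and soma and neurites were separated on porous membranes. This massively parallel reporter assay (MPRA) has 4 samples per compartment and genotype, counted in unique molecular identifiers (UMIs). RNA Bind-n-Seq (RBNS) gave the reads of each oligo recovered with purified TDP-43 at 5, 50 and 500 nM (2 libraries each), at 0 nM (1 library) and in the input (1 library). In SLAM-seq, newly made RNA takes up 4-thiouridine (4SU), which is read as T>C, and its loss was followed over a chase of 12 h in knockout cells (3 libraries at 0 h and 3 at 12 h) and wild-type cells (2 and 3), with 3 libraries without 4SU. RNA-seq of soma and neurites covers wild-type and knockout CAD and N2A cells and otherwise wild-type CAD cells with an integrated single-copy, doxycycline-inducible transgene of wild-type or Q331K TDP-43, with 3 samples per group. Q331K is a substitution found in amyotrophic lateral sclerosis. Nothing in the labels says that samples of a group were separate cultures, so p-values measure the spread between these samples, which may be technical.

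MPRA libraries held 7923270 to 12208997 UMIs, RBNS libraries 1806779 to 9646262 reads, and SLAM-seq libraries 10782983 to 33024830 reads. Estimated counts ran from 24985886 to 32864234 in CAD, from 22705524 to 31881678 in N2A and from 9771564 to 15850661 in the Q331K experiment. The 207 oligos took 1.62% to 1.69% of UMIs in wild-type soma, 1.53% to 1.57% in knockout soma, 1.53% to 1.61% in wild-type neurites and 0.990% to 1.05% in knockout neurites. Their share was thus lowest in the 4 knockout neurite libraries, where 961 of the 11918 oligos tested were higher than in wild-type neurites, and MPRA levels below are CPM (UMIs relative to library size) scaled with TMM, a method that sets aside the oligos with the most extreme ratios. All 207 oligos passed the MPRA filter. In RBNS, 185 had enough input reads to be tested (115 of Ssc5d, 70 of Soga3), and in SLAM-seq 189 had enough T positions (97 of Ssc5d, 92 of Soga3).

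Tardbp itself followed the labels. In CAD soma it stood at 515, 569 and 526 CPM in wild-type and 92.7, 90.4 and 98.3 CPM in knockout samples, a log2 fold change of -2.52 (adjusted p = 3.35e-12 in edgeR). In CAD neurites it stood at 536, 501 and 491 CPM in wild-type and 150, 134 and 129 CPM in knockout samples (-1.89, adjusted p = 3.92e-11 in edgeR). Every knockout sample lay below every wild-type sample in both compartments. In N2A soma Tardbp was at 546, 601 and 590 CPM against 160, 168 and 179 CPM, and in N2A neurites at 695, 665 and 689 CPM against 265, 264 and 243 CPM, with log2 fold changes of -1.78 and -1.41. The groups were again apart in N2A. All 5 neuronal markers checked were above 1 TPM in each CAD and N2A group, with sums of 623 to 2258 TPM in CAD libraries and Tubb3 or Map1b as the most abundant. At an FDR of 0.01 in edgeR, Stmn2 fell by 0.50 in CAD soma and fell by 0.46 in CAD neurites, Map1b fell by 0.79 in CAD neurites, and Tubb3 and Gap43 rose by 0.49 and 0.43 in N2A soma. The astrocyte, oligodendrocyte and leukocyte markers had group means below 1 TPM in CAD cells, with Mog at 0 in 3 of the 4 groups, while Pecam1, an endothelial marker, was at 0.793 to 4.32 TPM and rose by 0.38 in CAD soma and 0.49 in CAD neurites. In N2A soma, wild-type and knockout means were 2.25 and 2.43 TPM for Mbp, 1.35 and 0.689 TPM for Ptprc, 0.808 and 1.62 TPM for Gfap and 3.60 and 3.18 TPM for Pecam1. The catecholaminergic markers Th and Dbh summed to 11.8, 18.9 and 22.4 TPM in wild-type and 35.6, 45.5 and 54.5 TPM in knockout CAD soma, mostly Dbh. Dbh rose by 1.42 in CAD soma and 1.36 in CAD neurites, while Th fell by 0.75 and fell by 1.21. The part of all these marker changes in the results below was not tested.

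SLAM-seq has 1 library that stands apart, knockout 12 h replicate 1. Its share of T positions read as C over all oligos was 1.37%, against 0.465% and 0.511% in the other knockout libraries at 12 h, 1.17%, 1.17% and 1.33% in wild-type cells at 12 h, and 1.81%, 1.83% and 1.91% in knockout cells at 0 h. It sits with the wild-type 12 h libraries rather than with its own group. SLAM-seq results are therefore given with and without it.

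The tiled region of Ssc5d is mostly coding. Ssc5d (ENSMUSG00000035279) spans 4925785 to 4944826 of chromosome 7 in GRCm38, plus strand, and its coding transcript Ssc5d-201 (ENSMUST00000057612) has 14 exons, 4348 nt and a 3′ UTR of 65 nt with the stop codon (4944762 to 4944826). The oligos were placed by matching their base composition and the motif positions in their names to the annotated transcript, and 3 of the 4 named motif stretches matched at that position. Oligo 1 then starts 455 nt before the stop codon at 4944307, and the tiles end at 4944926, which is 100 nt past the annotated end of the transcript. Oligos 1 to 33 hold coding sequence only, 34 to 44 reach part of the 3′ UTR, and 45 to 61 hold coding sequence, the whole 3′ UTR and sequence past its end.

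The motifs altered in the mutated oligos are the 5mers TGTGT and GTGTG as well as GTATG, which may overlap into a longer stretch, searched on the transcript's strand only. The Ssc5d transcript holds 18 such stretches, of which 16 lie in coding sequence, 1 over the stop codon and 1 in the 3′ UTR, and its tiles cover 3 of them. The 3 covered stretches are shown because the oligos are grouped by them below, with the motif in capitals, at chr7:4944447-4944476, chr7:4944746-4944775 and chr7:4944797-4944826 on the plus strand of GRCm38.
Ssc5d coding stretch: ccttttgggccaTGTGTGTccccattacca
Ssc5d stop codon stretch: tctgaggggagaTGTGTGacccactctgaa
Ssc5d 3′ UTR stretch: cttaaacaaaagccaacGTATGtacaatcg
The last motif in the names lies past the annotated end, from 4944829 to 4944833, and its sequence was not analysed here. Ssc5d oligos 1 to 26 carry the coding stretch, 27 to 33 carry none, 34 to 42 the stop codon stretch, 43 to 45 that and the 3′ UTR stretch, and 46 to 61 those and the one past the end.

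Soga3 is nearly free of these motifs. Soga3 (ENSMUSG00000038916) spans 29143839 to 29199630 of chromosome 10 in GRCm38, plus strand, with 7 exons, 4105 nt and a 3′ UTR of 578 nt (29199053 to 29199630) in its transcript Soga3-201 (ENSMUST00000092629). Its tiles run from 29198956 to 29199725, from 97 nt before the stop codon to 95 nt past the annotated end. They were placed by base composition alone, where a start 1 nt later gave a residual of 0.0190 against 0.0184, so these positions are less sure than those of Ssc5d. The Soga3 transcript holds 2 motif stretches, 1 in the 5′ UTR and 1 in coding sequence, both outside the tiles. Its oligos 1 to 80 have no motif, and 81 to 86 have 1, past the annotated end.

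The first question is whether these reporters gather in neurites when TDP-43 is lost. The localization ratio (LR) is log2 of neurite over soma level, and an LR change always means knockout minus wild type. The LR of a single replicate divides neurite and soma libraries of the same number. These numbers did not pair the MPRA samples, so overlap between groups of single LRs depends on the numbering. None of the 207 oligos passed edgeR's test of the LR change at an FDR of 0.01, where 5.43% of the whole pool did (614 of 11918 higher, 33 lower). An unadjusted p under 0.05 was reached by 10 of them in edgeR, where 1182 of the pool's 11918 reached it. The 10 were 4 of Ssc5d with a higher LR and 6 of Soga3 with a lower one. With DESeq2 also 0 were called, and 4 Ssc5d, 5 Soga3 and 1085 pool oligos had an unadjusted p under 0.05. The LR change ran from -0.20 to 0.28 over the Ssc5d oligos, with a median of 0.04, and from -0.32 to 0.17 over those of Soga3, with a median of -0.07, beside a median of -0.01 for all oligos. With upper-quartile scaling the Ssc5d median was -0.04, where that of all oligos was -0.08, so its sign depends on the scaling. The Soga3 median was then -0.15, and edgeR called 0 of these oligos. At an unadjusted p under 0.05 stood 4 Ssc5d and 25 Soga3 oligos, all lower. In the pool, 2418 of 11918 did so with this scaling, 1728 of them lower.

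The median LR of the 61 unmutated Ssc5d oligos was -0.16, 0.07, 0.02 and -0.10 in wild-type replicates 1 to 4 and -0.02, -0.07, 0.13 and -0.08 in knockout replicates. These values overlap. For the 86 unmutated Soga3 oligos the medians were 0.02, -0.06, -0.10 and 0.02 in wild-type and -0.03, -0.11, -0.25 and -0.06 in knockout replicates, with knockout replicate 3 lowest and the groups overlapping. The pool's 7367 unmutated oligos had medians between -0.02 and 0.00 in all 8.

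Ssc5d oligo 26 (chr7:4944457-4944716), the last with the coding motif, had the highest LR change of the unmutated Ssc5d oligos. Its LR was -0.37, 0.30, -0.13 and -0.09 in wild-type and 0.10, 0.17, 0.66 and -0.20 in knockout samples. The groups overlap, and the change was 0.25 (95% interval -0.06 to 0.56, adjusted p = 0.715 in edgeR). Ssc5d oligo 53, with 3 motifs, had the lowest, with LRs of -0.08, 0.01, 0.20 and -0.10 in wild-type and -0.21, -0.08, 0.00 and -0.14 in knockout samples. This is a change of -0.12 (adjusted p = 0.757 in edgeR), again with overlapping groups. The LR changes of Ssc5d oligos 1 and 61 at the ends of the tiling were 0.01 and 0.00.

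Soga3 oligo 17 (chr10:29199052-29199311), which starts next to the stop codon, had the lowest LR change of the Soga3 oligos. Its LR was 0.11, 0.16, 0.19 and 0.27 in wild-type and -0.11, 0.11, -0.12 and -0.49 in knockout samples. Only knockout replicate 2 overlapped the wild-type samples, and the change of -0.32 (SE 0.16) had an adjusted p = 0.535 in edgeR. Soga3 oligo 30 had the highest, with LRs of -0.37, -0.13, -0.22 and -0.21 in wild-type and -0.31, 0.30, -0.24 and -0.05 in knockout samples. These overlap, and the change was 0.17 (adjusted p = 0.890 in edgeR). At the ends of the Soga3 tiling, the LR changes of oligos 1 and 86 were -0.11 and -0.01.

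Along Ssc5d, the LR change was not ordered by the number of motifs. The median of the unmutated oligos was 0.03 with the coding motif, 0.14 with none, -0.01 with the stop codon motif, 0.08 with 2 motifs and 0.01 with 3. All 7 motif-free oligos were above 0 (0.09 to 0.19), and they share most of their sequence. By region, the median was 0.09 for coding sequence alone, -0.01 with part of the 3′ UTR and 0.01 with all of it. For Soga3 it was -0.12 for the oligos that reach into coding sequence, -0.07 within the 3′ UTR and -0.02 past the annotated end. Of the 92 Soga3 oligos, 16 were above 0, beside 47.4% of all oligos tested, and neighbouring oligos share most of their sequence. No difference between these classes was tested.

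Mutating the motifs can be read pair by pair, as the LR change of an unmutated oligo minus that of its partner. At an FDR of 0.01 limma called 0 of the 60 pairs, against 7.04% of the pool's 4503 pairs. An unadjusted p under 0.05 was reached by 1 Ssc5d pair, lower, and 2 Soga3 pairs, 1 higher and 1 lower. In the pool 603 pairs reached it, 527 higher and 76 lower. No other tool was run on pairs. The difference ran from -0.29 to 0.17 over the 54 Ssc5d pairs (median -0.00) and from -0.26 to 0.24 over the 6 Soga3 pairs (median 0.13). The pool's median was 0.02.

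Single contrasts of the MPRA gave 8 calls among the 207 oligos, and the oligos they fell on were named after their values were seen. In wild-type cells, 3 Soga3 oligos within the 3′ UTR had a lower level in neurites than in soma (1.48% of the pool called lower). Soga3 oligo 50 (chr10:29199250-29199509) had 7.57, 7.04, 6.88 and 9.72 CPM in neurites and 12, 11.3, 10.9 and 12.3 CPM in soma. All neurite samples were below all soma samples, with an LR of -0.57 (adjusted p = 0.00272 in edgeR). Its near neighbours Soga3 oligos 48 and 53 had LRs of -0.46 and -0.40 (adjusted p = 0.000600 and 0.000855 in edgeR), also with groups apart. Leaving out replicate 1, 2 or 3 reduced these 3 calls to 1, 0 and 1. The median LR in wild-type cells was -0.06 for Ssc5d oligos and 0.00 for Soga3 oligos.

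Most Soga3 reporters had a small positive change in knockout soma, and few were called. Of the 92 Soga3 oligos, 81 had a log2 fold change above 0 in soma (median 0.11), beside 46.2% of all oligos (median -0.01). An unadjusted p under 0.05 was reached upward by 37 of them and by 1436 of the pool's 11918 in edgeR, and 3 passed an FDR of 0.01, a smaller share than the pool's 7.55%. Soga3 oligo 39 had 85.7, 91.8, 97.0 and 93.9 CPM in wild-type and 107, 104, 123 and 111 CPM in knockout soma. Every knockout sample was above every wild-type sample, a log2 fold change of 0.27 (adjusted p = 0.00298 in edgeR). Soga3 oligos 27 and 45 rose by 0.35 and 0.30 (adjusted p = 0.00839 and 0.00217 in edgeR). Without replicate 3, all 3 calls were lost, as they were with upper-quartile scaling. That scaling put the Soga3 median at 0.04 and the median of all oligos at -0.07. It called 4 Ssc5d oligos lower, beside 282 of the pool's 11918. For the 115 Ssc5d oligos edgeR called 0 in soma, with 12 at an unadjusted p under 0.05, all lower, and a median of -0.06. In the pool, 658 of 11918 were lower at that p. The unmutated Ssc5d oligos ran from -0.25 to 0.09.

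In neurites, 2 Ssc5d oligos were lower in knockout cells, where 0.696% of the pool was. Ssc5d oligo 10 (chr7:4944361-4944620), which carries the coding motif, had 54.6, 57.6, 58.0 and 50.0 CPM in wild-type and 41.7, 45.0, 48.4 and 46.1 CPM in knockout neurites. The groups do not overlap, and the log2 fold change was -0.28 (adjusted p = 0.00387 in edgeR). Its mutated partner had 40.7, 40.9, 36.8 and 34.5 CPM in wild-type and 44.1, 43.9, 41.3 and 38.1 CPM in knockout neurites, overlapping and mostly higher in knockout samples. In the pair test, the neurite change of unmutated minus mutated oligo 10 was -0.41 (adjusted p = 0.000928 in limma), the 1 call among the 54 Ssc5d pairs, where 642 of the pool's 4503 pairs were called higher and 10 lower. Mutated Ssc5d oligo 6 had 50.2, 50.1, 47.0 and 46.8 CPM in wild-type and 38.3, 41.4, 42.1 and 36.9 CPM in knockout neurites, a log2 fold change of -0.29 (adjusted p = 0.00923 in edgeR), also with groups apart. Both calls were lost without replicate 1 and without replicate 2. With upper-quartile scaling, 31 Ssc5d and 14 Soga3 oligos were called lower in neurites, as were 3998 of the pool's 11918. This scaling moved the median of all oligos there from -0.02 to -0.16. The Ssc5d median of -0.15 and the Soga3 median of -0.11 lay above it.

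Binding to TDP-43 was measured as R, the frequency of an oligo among reads recovered with the protein over its frequency in the input. By their median R, the tiles of Ssc5d and Soga3 stood on opposite sides of the pool. The input and the 0 nM sample have 1 library each, so the tests take their spread from the pairs of libraries at 5, 50 and 500 nM and assume that the lone library varies as they do. At 500 nM, 22 of the 115 Ssc5d oligos were higher than in the input at an FDR of 0.01 in edgeR and 0 were lower, while 0 of the 70 Soga3 oligos were higher and 31 were lower. In the pool, 7.04% of oligos were higher and 14.9% lower. Of the Ssc5d oligos 36 were higher and 11 lower at an unadjusted p under 0.05, and of the Soga3 oligos 0 and 61, where 1686 and 3939 of the pool's 10720 were. DESeq2 called 31 Ssc5d oligos higher and 41 Soga3 oligos lower, and 1174 and 2154 in the pool. Without 500 nM replicate 1, the edgeR counts were 11 and 19. A block for replicate number, added after seeing the data, gave 6 Ssc5d oligos higher and 14 Soga3 oligos lower in edgeR. The pool then had 384 higher and 645 lower. The count of 0 lower for Ssc5d depends on the reference. Against the 1 library at 0 nM, edgeR called 18 Ssc5d oligos higher and 7 lower, and 27 Soga3 oligos lower. In the pool it called 987 higher and 1718 lower. For Ssc5d, 32 were higher and 27 lower at an unadjusted p under 0.05, with a median log2 ratio of -0.03. The pool had 2112 and 3528 there, with a median of -0.34. The median R at 500 nM was 1.32 and 1.11 for Ssc5d, and the pool's was 0.627 and 0.693, so an R near these values is typical of the pool.

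The R of the Ssc5d oligos was highest in the classes with 2 or 3 motifs. The median over unmutated oligos of the mean R at 500 nM was 1.07 with the coding motif, 2.08 with none, 2.40 with the stop codon motif, 2.98 with 2 motifs and 3.24 with 3. In the 1 library without protein, R of the oligos with the coding motif ran from 1.06 to 2.09. For most of them the mean R at 500 nM was lower than that without protein, and for the others it was higher. Of the 16 oligos with 3 motifs, 14 were called higher, and their R ran from 2.00 to 5.71. Their median R was 0.749 without protein, 0.784 and 0.733 at 5 nM, 0.919 and 1.20 at 50 nM, and 3.51 and 2.97 at 500 nM, so R differed most between 50 and 500 nM. The number of motifs does not order all classes, since the motif-free oligos 27 to 33 (0.918 to 2.98) had a higher median than those with the coding motif alone (0.472 to 2.24), with overlapping ranges. Among them, named after their values were seen, Ssc5d oligo 30 had an R of 3.23 and 2.73 and oligo 33 of 2.81 and 2.40.

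Ssc5d oligo 48 (chr7:4944589-4944848), with 3 motifs, had the highest R of the 207 oligos. From 2325 input reads, its R was 1.27 without protein, 1.25 and 1.36 at 5 nM, 2.43 and 4.37 at 50 nM, and 6.45 and 4.97 at 500 nM. Both 500 nM libraries lay above all others, with a log2 R of 2.51 (SE 0.45, adjusted p = 0.00212 in edgeR). Its mutated partner had an R of 1.22 and 1.12 at 500 nM. In the MPRA the same Ssc5d oligo 48 had 107, 114, 121 and 103 CPM in wild-type neurites and 119, 108, 119 and 105 CPM in knockout neurites. In soma it had 120, 119, 122 and 119 CPM and 115, 121, 119 and 128 CPM. The genotypes overlap in both compartments, and its LR change was 0.01 (95% interval -0.13 to 0.16).

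The lowest unmutated Ssc5d oligo by R was oligo 6, within coding sequence, at 0.579 and 0.365 at 500 nM. Among Soga3 oligos, oligo 42 had the highest R, at 0.200 and 0.638, and oligo 66 the lowest, at 0.0222 and 0.0762 (log2 R -4.49, adjusted p = 0.00255 in edgeR). Both lie in the 3′ UTR and hold no motif. The libraries disagreed in size for Soga3, with a median R of 0.0663 in 500 nM replicate 1 and 0.160 in replicate 2, and every tested Soga3 oligo had a mean R under 1. Over the same oligos the median R was 0.823 without protein, 0.729 and 0.600 at 5 nM and 0.196 and 0.146 at 50 nM, so R was lower from 50 nM on.

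Most mutated Ssc5d oligos had a lower R than their partners, though no pair was called. Of the 54 Ssc5d pairs, 49 had a higher R when unmutated, as had 2586 of the pool's 3996. In limma, 23 Ssc5d pairs had an unadjusted p under 0.05, all higher when unmutated. The pool had 817 higher and 218 lower at that p. For the Ssc5d pairs the median mean R at 500 nM was 1.66 unmutated and 0.872 mutated. All 16 pairs with 3 motifs were above 0, with log2 differences of 1.09 to 2.61 (median 2.16), and the mutated oligos of this class had a median R of 0.789. At an FDR of 0.01 limma called 0 of these pairs and 0% of the pool's 3996 pairs, although 1035 of the pool's and 15 of these 16 pairs had an unadjusted p under 0.05, and the lowest adjusted p in the pool was 0.0338. Against the 0 nM library, limma called 0 of these pairs and 2 in the pool. With that reference, 23 Ssc5d pairs and 1276 pool pairs had an unadjusted p under 0.05.

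Ssc5d oligo 60 showed the largest pair difference, with an R of 3.24 and 2.77 unmutated and 0.531 and 0.451 mutated. The libraries do not overlap, and the log2 difference was 2.61 (SE 0.31, adjusted p = 0.0437 in limma). Ssc5d oligo 46, the first with 3 mutated stretches, had 4.01 and 3.18 unmutated and 1.14 and 1.06 mutated (1.70, adjusted p = 0.0497 in limma), again apart. Ssc5d oligo 2, with the coding motif, showed the reverse order, at 1.36 and 1.08 unmutated and 2.12 and 1.60 mutated (-0.60, adjusted p = 0.369 in limma). Of the 6 Soga3 pairs, 5 were above 0 and 0 had an unadjusted p under 0.05 in limma, from -0.02 for oligo 84 to 0.75 for oligo 82.

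SLAM-seq shows how fast the label left the reporters. Over all Ssc5d oligos, the share of T read as C was 1.78% and 1.76% in wild-type cells at 0 h and 0.946%, 0.976% and 1.10% at 12 h. In knockout cells it was 1.65%, 1.66% and 1.72% at 0 h and 1.14%, 0.318% and 0.364% at 12 h, with replicate 1 as the high one. Without 4SU it was 0.265%, 0.189% and 0.150%, so the 2 other knockout libraries at 12 h stood above this background by less than their distance to the wild-type libraries.

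Soga3 oligos gave the same picture, with slightly higher rates in the libraries with 4SU. Their share was 2.02% and 2.03% in wild-type cells at 0 h and 1.21%, 1.19% and 1.36% at 12 h. In knockout cells it was 1.91%, 1.94% and 2.00% at 0 h and 1.41%, 0.405% and 0.468% at 12 h, and without 4SU 0.202%, 0.163% and 0.136%. Knockout cells other than replicate 1 had less label left at 12 h than every wild-type library, for both genes.

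With all libraries, only the label loss in knockout cells gave calls among these oligos. Label loss is given as the log2 odds of T>C at 12 h against 0 h, so a lower value means that less label was left. In wild-type cells it had medians of -0.84 for Ssc5d, -0.78 for Soga3 and -0.71 for the pool. edgeR called 0 of the 189 oligos at an FDR of 0.05, against 0.00946% of the pool. There, 17 Ssc5d and 28 Soga3 oligos had an unadjusted p under 0.05, as had 1147 of the pool's 10576. With limma 0 of the 189 were called, and 14, 26 and 1121 had an unadjusted p under 0.05. In knockout cells the medians were -1.75, -1.69 and -1.50, and edgeR called all 97 Ssc5d and all 92 Soga3 oligos lower, as 97.2% of the pool was. Those calls went to 0 without replicate 2 and without replicate 3 of each group. The change in label loss (knockout minus wild type) is below 0 where more of the label was lost in knockout than in wild-type cells. It had medians of -0.90, -0.87 and -0.79, with 0 calls in edgeR and 0% of the pool. For this change, 2 Ssc5d and 8 Soga3 oligos had an unadjusted p under 0.05 in edgeR, as had 261 of the pool's 10576. With limma 0 of these oligos were called, and 3, 9 and 395 had an unadjusted p under 0.05.

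Without knockout 12 h replicate 1, nearly every oligo was called. A change called lower again means that more of the label was lost in knockout cells. The label loss in knockout cells was still called for all 97 and 92, that in wild-type cells was then called for 97 Ssc5d and 91 Soga3 oligos (97.0% of the pool), and the change was called lower for 97 and 91 (96.3% of the pool), with medians of -1.48 for Ssc5d, -1.48 for Soga3 and -1.33 for the pool. These shares are those of the background, so they say nothing particular about the oligos of either gene. When each rate was also taken relative to its library's median and tested with limma, the change (knockout minus wild type) was called lower for 3 Ssc5d and 13 Soga3 oligos (5.92% of the pool) and higher for 1 and 2 (10.3% of the pool). For the loss in knockout cells alone, on the same relative rates, limma called 45 and 36 lower and 3 and 16 higher, with 2194 and 2651 of the pool's 10576. The medians of this relative change were -0.14 for Ssc5d, -0.10 for Soga3 and 0.02 for the pool. Within Ssc5d it was 0.02 with the coding motif, -0.14 with none, -0.19 with the stop codon motif, -0.13 with 2 motifs and -0.28 with 3, and the mutated oligos of that last class had -0.22.

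Ssc5d oligos 15 and 17, both with the coding motif, had the smallest and the largest change in label loss among the unmutated Ssc5d oligos. Ssc5d oligo 15 had 2.01% and 1.94% at 0 h and 1.08%, 0.937% and 1.27% at 12 h in wild-type cells, and 1.75%, 1.64% and 1.78% and then 1.59%, 0.482% and 0.596% in knockout cells. Ssc5d oligo 17 had 1.67% and 1.85% and then 1.06%, 1.16% and 1.17% in wild-type cells, and 2.01%, 1.65% and 1.72% and then 0.975%, 0.238% and 0.373% in knockout cells. At 12 h, knockout replicate 1 of oligo 15 lay above all its wild-type samples, and that of oligo 17 below all of its own. The change was -0.28 for oligo 15 and -1.34 for oligo 17 with all libraries, and -0.84 and -1.96 without that library.

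Soga3 oligos 4 and 5, next to each other at the coding end of the tiling, spanned the range of Soga3. Soga3 oligo 4 had 1.34% and 1.42% at 0 h and 0.638%, 0.416% and 0.701% at 12 h in wild-type cells, and 0.938%, 0.940% and 1.0% and then 0.708%, 0.285% and 0.365% in knockout cells. It started lower in knockout cells than in wild-type cells at 0 h. Soga3 oligo 5 had 1.37% and 1.38% and then 0.879%, 0.983% and 1.01% in wild-type cells, and 1.54%, 1.61% and 1.74% and then 0.977%, 0.212% and 0.279% in knockout cells, and its knockout samples at 0 h were the higher ones. The change was 0.07 for Soga3 oligo 4 and -1.55 for oligo 5, or -0.35 and -2.24 without knockout 12 h replicate 1. Soga3 oligo 4 was then the 1 of the 189 not called for this change in edgeR, and relative to the library median it changed by 1.02 (adjusted p = 0.0212 in limma) and oligo 5 by -0.89 (adjusted p = 0.00362 in limma).

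The start of the Ssc5d tiling is nearly missing from SLAM-seq, although the MPRA counts it. Ssc5d oligos 1 to 9 and their mutated partners make up the 18 oligos not tested there, and the unmutated ones had median SLAM-seq reads between 0 and 27.5 beside 414.5 to 615 UMIs per MPRA library on average. They had 82.9 to 85.5 UMIs per 100 MPRA reads, as had their mutated partners (82.2 to 84.9), above the 67.9 to 74.7 of the 97 remaining Ssc5d oligos and the pool's median of 72.4. In the pool, 1194 oligos had more than 50 UMIs and fewer than 30 SLAM-seq reads. The cause was not tested.

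The LR of the endogenous Ssc5d RNA rose in knockout cells, where its soma level was lower and no neurite change was called. The study picked tiled genes with CAD results in view, so the CAD values of both genes are a description. In CAD soma, Ssc5d stood at 76.8, 93.9 and 97.3 CPM in wild-type and 30.6, 34.2 and 30.7 CPM in knockout samples. In CAD neurites it stood at 60.3, 68.5 and 65.3 CPM in wild-type and 51.6, 64.2 and 64.3 CPM in knockout samples. The soma groups are far apart and the neurite groups overlap, with log2 fold changes of -1.49 in soma (adjusted p = 1.21e-08 in edgeR; 11.6% of genes called lower) and -0.11 in neurites (adjusted p = 0.425 in edgeR; 25.3% of genes called in either direction). In bulk RNA, fewer cells with the transcript and less of it per cell cannot be told apart.

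The LR of Ssc5d in CAD cells was -0.35, -0.46 and -0.58 in wild-type and 0.76, 0.91 and 1.07 in knockout samples. All knockout samples lay above 0 and all wild-type samples below, a change of 1.38 (SE 0.14, 95% interval 1.09 to 1.67, adjusted p = 3.21e-05 in edgeR), where 0.225% of genes were called higher. Per transcript length, its mean in CAD soma was 34.2 TPM in wild-type and 10.7 TPM in knockout samples, and 7.62 and 8.05 TPM in neurites. By TPM, the knockout neurite samples (6.76, 8.76 and 8.64) stayed below the knockout soma samples (9.71, 10.8 and 11.6), so the sign of the LR in knockout cells depends on the unit. Ssc5d-201 made up 94.3% to 100% of this TPM in every CAD library, the rest being the retained-intron transcript Ssc5d-202 of 697 nt.

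N2A cells showed the same pattern for Ssc5d. Its soma level was 93.3, 102 and 94.9 CPM in wild-type and 49.3, 56.3 and 43.5 CPM in knockout samples, and its neurite level 35.6, 42.0 and 40.1 CPM and 47.4, 46.5 and 34.8 CPM. Knockout soma samples were all lower, and neurite samples overlapped, with log2 fold changes of -0.96 (adjusted p = 3.14e-05 in edgeR; 5.15% of genes called lower) and 0.13 (adjusted p = 0.520 in edgeR; 11.6% called in either direction). The LR went from -1.39, -1.28 and -1.24 to -0.06, -0.28 and -0.32, a change of 1.09 (95% interval 0.73 to 1.44, adjusted p = 0.00980 in edgeR), where 0.0893% of genes were called higher. That call sits close to the FDR of 0.01 and was lost without any 1 of the 3 replicates, at changes of 0.97 to 1.13. In the Q331K experiment, the LR of Ssc5d was -0.28, -0.02 and 0.15 with the wild-type transgene and -0.50, -0.37 and -0.15 with Q331K, which overlap (-0.29, adjusted p = 0.999 in edgeR; 0% of genes called, 605 at an unadjusted p under 0.05).

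Endogenous Soga3 passed the FDR of 0.01 in no contrast of genotypes. In CAD soma it stood at 99.6, 98.2 and 105 CPM in wild-type and 93.6, 99.0 and 97.1 CPM in knockout samples, and in CAD neurites at 84.0, 78.0 and 87.0 CPM and 69.4, 77.8 and 72.8 CPM. The log2 fold changes were -0.06 in soma (adjusted p = 0.483 in edgeR) and -0.18 in neurites (adjusted p = 0.0343 in edgeR). Every knockout neurite sample lay below every wild-type one. Its LR was -0.25, -0.33 and -0.28 in wild-type and -0.43, -0.35 and -0.41 in knockout samples, all knockout samples lower by a little (-0.11, adjusted p = 0.719 in edgeR). For N2A cells, its LR was 0.14, 0.02 and -0.03 and then -0.02, -0.31 and -0.38, overlapping by 1 sample (-0.28, adjusted p = 0.101 in edgeR). The N2A log2 fold changes were 0.27 in soma (adjusted p = 0.0189 in edgeR) and -0.02 in neurites (adjusted p = 0.927 in edgeR). The Q331K change was 0.14 (adjusted p = 0.999 in edgeR). Soga3-201 held 57.6% to 77.8% of the Soga3 TPM in CAD libraries, and the processed transcript Soga3-204 of 686 nt held 9.06% to 35.3%.

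Set side by side, the endogenous Ssc5d change lies outside the interval of every Ssc5d reporter. The upper 95% bound of the LR change was at most 0.56 for an unmutated Ssc5d oligo (oligo 26) and at most 0.67 for any (mutated oligo 56), and it was below the endogenous 1.38 in CAD and 1.09 in N2A for 115 of 115 oligos. In soma, where the endogenous RNA fell by 1.49 in CAD on the log2 scale, the unmutated reporters ran from -0.25 to 0.09. The tiles cover the last 455 nt of coding sequence and the 65 nt of 3′ UTR, out of 4348 nt, and 3 of the 18 motif stretches of the transcript. No oligo covers the other 15 stretches, and no other segment of Ssc5d was assayed here. Whether sequence outside the tiles changes the LR of the endogenous RNA was therefore not tested.

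Other tiled genes differ from Ssc5d in where the endogenous level moved. The study picked most tiled genes for a localization change in knockout cells, so the CAD values of this set are a description and not a test. Of the 16 tiled genes, in CAD cells 10 gained and 2 lost LR with the knockout (39 and 36 of 17343 genes), with a median change of 1.91 against -0.01 over all genes. The 9 beside Ssc5d, which include Diras1 (a Ras-like GTPase), Ksr2 (a scaffold of the MAP kinase pathway) and Wasf3 (a WAVE protein of actin assembly), all rose in CAD neurites, by 2.41 for Kcnj12 to 6.17 for Diras1, while Ssc5d did not pass there. In soma, 7 tiled genes rose and 3 fell, Ssc5d furthest at -1.49, then Synj2bp at -1.16 and Ksr2 at -0.48, where 1946 of all genes rose and 2007 fell. Each of those 9 genes had unmutated reporters called higher in LR, from 17 of 501 for Kcnj12 to 81 of 263 for Lrrc47, and Ssc5d had 0 of 61 in edgeR (2 at an unadjusted p under 0.05). Their highest R at 500 nM was 7.28 to 10.9, and that of Ssc5d was 5.71, with 13 of its 61 oligos above 3. Soga3, Sos2 and Lars2, which have no called reporter either, had a highest R of 0.419, 2.51 and 4.0. Cacna1b had 29 of 501 reporters called higher and 1 lower with a highest R of 7.85, while its endogenous LR change in CAD was -0.91 (adjusted p = 0.0132 in edgeR) and it fell by 0.95 in CAD neurites. Tub had 0 of 697 reporters called higher and 17 lower with a highest R of 7.34 and 73 oligos above 3, and Synj2bp had 0 higher and 1 lower with a highest R of 3.32. In N2A cells, 9 tiled genes had a higher LR and Sos2 a lower one (median 1.01; 16 and 2 of 17912 genes), and in the Q331K experiment edgeR called 0 of 16, with 2 at an unadjusted p under 0.05.

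Among scavenger receptor cysteine-rich genes, Ssc5d was the only one to pass the FDR for the LR change. Of 15 listed, 7 were tested in CAD and 8 in N2A cells, with 1 and 3 at an unadjusted p under 0.05 in edgeR. Over all genes, 1824 of 17343 and 5580 of 17912 had such a p. The medians of the list were -0.04 and 0.46, and those of all genes -0.01 and -0.01. In N2A cells 7 of the 8 were above 0, among them Loxl2 at 0.57 (95% interval 0.33 to 0.82, adjusted p = 0.0289 in edgeR) and Lgals3bp at 0.43 (adjusted p = 0.0460 in edgeR), and how they differ from Ssc5d was not tested. In CAD soma 3 fell, Ssc5d, Loxl2 (a lysyl oxidase that crosslinks collagen) and Lgals3bp (a secreted galectin-binding protein), and Hhipl1 rose, where 2007 of 17343 genes fell and 1946 rose. Loxl2 fell in both compartments, by 1.45 on the log2 scale in soma, and fell by 1.38 in neurites, so its LR change was 0.06 in CAD cells. In N2A soma 4 fell, Ssc5d, Ssc4d, Loxl2 and Hhipl1, as did 922 of 17912 genes. In the Q331K experiment 6 were tested and edgeR called 0 for the LR, with 0 at an unadjusted p under 0.05. Of Soga1, Soga3 and Mtcl1, edgeR called 0 for the LR in CAD, N2A and Q331K cells. An unadjusted p under 0.05 was reached by 2, 1 and 0, beside 1824 of 17343, 5580 of 17912 and 605 of 13940 genes. Mtcl1 fell by 0.25 in CAD neurites, where 2344 of 17343 genes fell. No other tool was run on these lists.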

How the data were processed

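For each oligo the authors deposited counts: reads and unique UMIs in the MPRA, reads in RBNS, and, in SLAM-seq, bases read at T positions, from which T and T>C were used. For RNA-seq, the authors trimmed reads with cutadapt and ran Salmon against mm10 transcripts, and deposited an estimated count per transcript, and a TPM for each transcript beside it. Summing to genes used GENCODE vM21 on GRCm38, with estimated counts rounded; at most 0.129% of a library's counts had no gene there.

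Tests on counts used edgeR 4.0.16 (R 4.3.3; quasi-likelihood tests with Benjamini-Hochberg adjustment over all oligos or genes tested; TMM scaling for MPRA and RNA-seq; FDR of 0.01, or 0.05 for SLAM-seq). MPRA and RNA-seq models held the 4 groups of an experiment, with the LR change as their interaction. Oligos needed 10 input reads in RBNS and 1000 T positions in each of the 11 SLAM-seq libraries with 4SU. R used 0.5 added to each count. Motif pairs were tested with limma 3.58.1 on log2 ratios, from 50 UMIs per oligo on average in the MPRA. DESeq2 1.42.0 was an alternative, and tables were handled in python 3.11.15 with numpy 2.4.6 and pandas 2.3.3. The fits were tested on simulated data.

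The oligos, gene lists and markers were chosen with earlier results of these data known. Named are, for each gene, the unmutated oligos with the highest and lowest LR change, R at 500 nM and change in label loss, the end oligos, oligos past the FDR, and the motif pairs with the most mutated stretches and with the largest and smallest change of R; others are named as chosen after their values were seen. Alternatives covered other tools, scalings, filters, thresholds, concentrations, a replicate block and leaving out replicates. The sample labels give the doxycycline dose printed here, while the study's methods state another. Human motor neuron samples were not analysed here.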

Additional observations from a re-analysis of the deposited data

Results flagged for a closer look

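Among the named oligos, 148 groups of 4 MPRA samples were checked for a sample far from the other 3, and 7 held one, where chance flags about 1 in 20 groups. In knockout neurites, Ssc5d oligo 53 was at 65.5 CPM in replicate 1 and at 70.4 to 70.6 CPM in the others. Soga3 oligo 17 was at 8.63 CPM in replicate 4, against 11.7 to 12.1 CPM, and Soga3 oligo 4 at 38.2 CPM in replicate 1, against 31.1 to 32.2 CPM. Mutated Ssc5d oligo 60 stood out in replicate 4 in both genotypes, at 11.1 CPM in wild-type neurites against 8.20 to 8.52 CPM, and at 5.81 CPM in knockout neurites against 9.97 to 10.5 CPM. In soma, Soga3 oligo 5 was at 39.4 CPM in wild-type replicate 4, against 38.5 to 38.6 CPM, and Soga3 oligo 50 at 15.4 CPM in knockout replicate 1, against 13.4 to 13.6 CPM.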

How the results depend on the processing

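All 13 alternatives kept the LR change of these oligos at 0 calls, and all 9 kept the LR change of endogenous Ssc5d in CAD cells at 1.24 to 1.5 and called. In N2A cells that change lost its call with length-scaled counts (1.0) and without each replicate (0.97 to 1.13). For these, as for all that follows, the cause was not tested.

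The MPRA contrast of neurites and soma in wild-type cells, with 3 calls, gave 5 with DESeq2, 5 with upper-quartile scaling, 12 at an FDR of 0.05, and 0 to 5 without 1 replicate. The soma contrast of the genotypes, also 3, gave 6 with DESeq2, 15 at an FDR of 0.05, and 0 to 4 without 1 replicate, and 0 higher and 4 lower with upper-quartile scaling in place of 3 and 0. The neurite contrast, with 2, gave 1 with UMIs corrected for collisions, 1 with read counts, 45 with upper-quartile scaling, 6 at an FDR of 0.05, and 0 to 2 without 1 replicate. Over the pool, an FDR of 0.05 gave 731 calls in wild-type cells in place of 482, and upper-quartile scaling 4887 in neurites in place of 1044 (889 higher and 3998 lower, in place of 961 and 83). In N2A cells upper-quartile scaling moved the median of all genes to 0.11 for the LR change and -0.12 in soma.

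Calls of RBNS, 53 at 500 nM, were 19 at 50 nM, 0 at 5 nM (edgeR) and 30 and 63 without 500 nM replicates 1 and 2. Pool calls of 755 higher and 1594 lower became 1174 higher with DESeq2, 1584 higher and 1029 lower with TMM (which moved the median log2 R from -0.60 to 0.01), and 1011 lower without replicate 1.

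SLAM-seq calls in wild-type cells went from 0 to 188 without knockout 12 h replicate 1, and stood at 0 to 166 without 1 replicate number. Those in knockout cells went from 189 to 0 relative to the library median, to 100 when that library was also left out, and stood at 0 to 189 without 1 number. Calls of the change went from 0 to 188 without that library, to 19 relative to the median as well, and stood at 0 to 179. In the pool, the 1 call in wild-type cells became 28 with limma and 10263 without that library, and the change went from 0 to 10187.

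Replicate numbers did not pair the samples of any experiment as a whole: correlations of same-numbered deviations ran from -0.07 to 0.18 in the MPRA, and not every sample correlated best with its own number. They were all over 0.1, each best with its own number, between genotypes in CAD soma (0.13 to 0.56) and N2A soma (0.20 to 0.60) and between compartments of wild-type CAD cells (0.17 to 0.28), but not in the other CAD and N2A pairs of groups. Endogenous Ssc5d kept its calls under the block. With a replicate block, the 3 wild-type MPRA calls became 7, the 3 soma calls 5 and the 53 RBNS calls 20 (6 Ssc5d higher and 14 Soga3 lower in place of 22 and 31; 384 higher and 645 lower in the pool). The RBNS duplicates came from separate protein batches, and the labels do not say whether the numbers mark them. Crossing the 500 nM numbers, which correlated at -0.19 with those at 50 nM, gave 60. The RBNS blocks and the SLAM-seq rates relative to the median without that library were added after seeing the data. RBNS has 1 input library and 1 at 0 nM, so neither could be left out.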
